A study of Mus musculus with 25 samples.

Results

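Extracellular metalloproteases and their inhibitors were described here as 47 mouse genes, chosen by family from the gene table of 35880 genes. They comprised 18 Adamts genes, 9 Adam genes, 13 Mmp genes, the 3 genes of the Bmp1 and Tolloid group and the 4 Timp genes. Members were taken by gene name and family, with no threshold on their values, although the set was put together with earlier results of these data known. Of the 47 genes, 46 passed the expression filter and were tested among 17657 genes; Mmp13 was not tested, since its mean did not exceed 6.33 normalized counts in any tissue.

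The zinc-dependent proteases of these families cut the extracellular matrix and release or activate growth factors at the cell surface. Adamts proteases process procollagens and cleave the large proteoglycans versican and aggrecan, Adam proteases are membrane-bound sheddases, Mmp proteases degrade collagens, gelatin and other matrix proteins, and the Bmp1 and Tolloid proteases trim procollagen and cleave the BMP antagonist chordin. Timp proteins are their secreted inhibitors, and remodelling of the matrix around branching epithelia is a setting in which both proteases and inhibitors are known to act.

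RNA was sequenced from mesenchyme dissected from C57Bl/6JOlaHsd mouse embryos, in 25 libraries of 5 tissues with 5 pools each. The tissues were the E16.5 fat pad precursor (FP), E16.5 mammary mesenchyme (MM), E13.5 MM, E13.5 ventral skin mesenchyme (VM), taken away from the mammary region, and E13.5 salivary gland mesenchyme (SM). All tissues were dissected after enzyme treatment, the mammary epithelium was removed with needles, and each pool held 2 to 3 embryos of 1 litter. The E16.5 embryos were labelled female and the E13.5 embryos were not sexed, so that sex and stage cannot be told apart. The 5 pools of a tissue came from 3 litters, so that litters were shared between pools in a way that the labels do not give. SDs and p-values therefore measure only the spread between these pools, which were not all independent.

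The libraries held 20678150 to 34448304 counts, with a median of 26370369. Genes of mesenchymal cells, such as Vim, Pdgfra and Col1a1, summed to at least 12734.0 CPM, or counts scaled to a common library total, in every pool, whereas 10 epithelial genes summed to no more than 109.2 CPM. The mesenchymal sums differed between tissues. They were 43739.3 to 49080.8 CPM in E16.5 MM, 23920.3 to 28188.7 in E16.5 FP and 16962.3 to 21557.4 in E13.5 MM. E13.5 VM held 14325.0 to 19161.9 CPM and E13.5 SM 12734.0 to 15556.0. Genes of other cell types differed between tissues. The 14 skeletal muscle genes summed to 2416.6 to 23672.9 CPM in E16.5 FP, against 885.7 to 3886.4 CPM in E16.5 MM, and the lowest FP value came from replicate 5, with the other 4 FP pools at 14078.8 CPM or more. The 10 genes of peripheral neurons summed to 336.9 to 429.8 CPM in E13.5 SM and to no more than 31.5 CPM in any other pool. In dissected tissue, fewer cells of a type and less RNA per cell cannot be told apart.

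The 6 comparisons of the design asked how mammary mesenchyme differed from ventral skin and from salivary mesenchyme, how it changed with stage, and how it differed from the fat pad precursor. A gene was called when its edgeR adjusted p was under 0.05, its log2 fold change was at least 0.58 in size, and its mean normalized count was above 50 in the higher tissue. Levels are given as normalized counts, which are counts scaled to a common library size, with the SD over 5 pools, and fold changes with their standard error (SE). The plot of all members by pool shows that the 5 pools of a tissue resembled each other for most genes, and that E13.5 SM and E16.5 MM held most of the highest levels. Of the 46 tested genes, 17 had their highest mean in E13.5 SM, 16 in E16.5 MM, 8 in E16.5 FP, 3 in E13.5 VM and 2 in E13.5 MM.

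**Figure D1:**
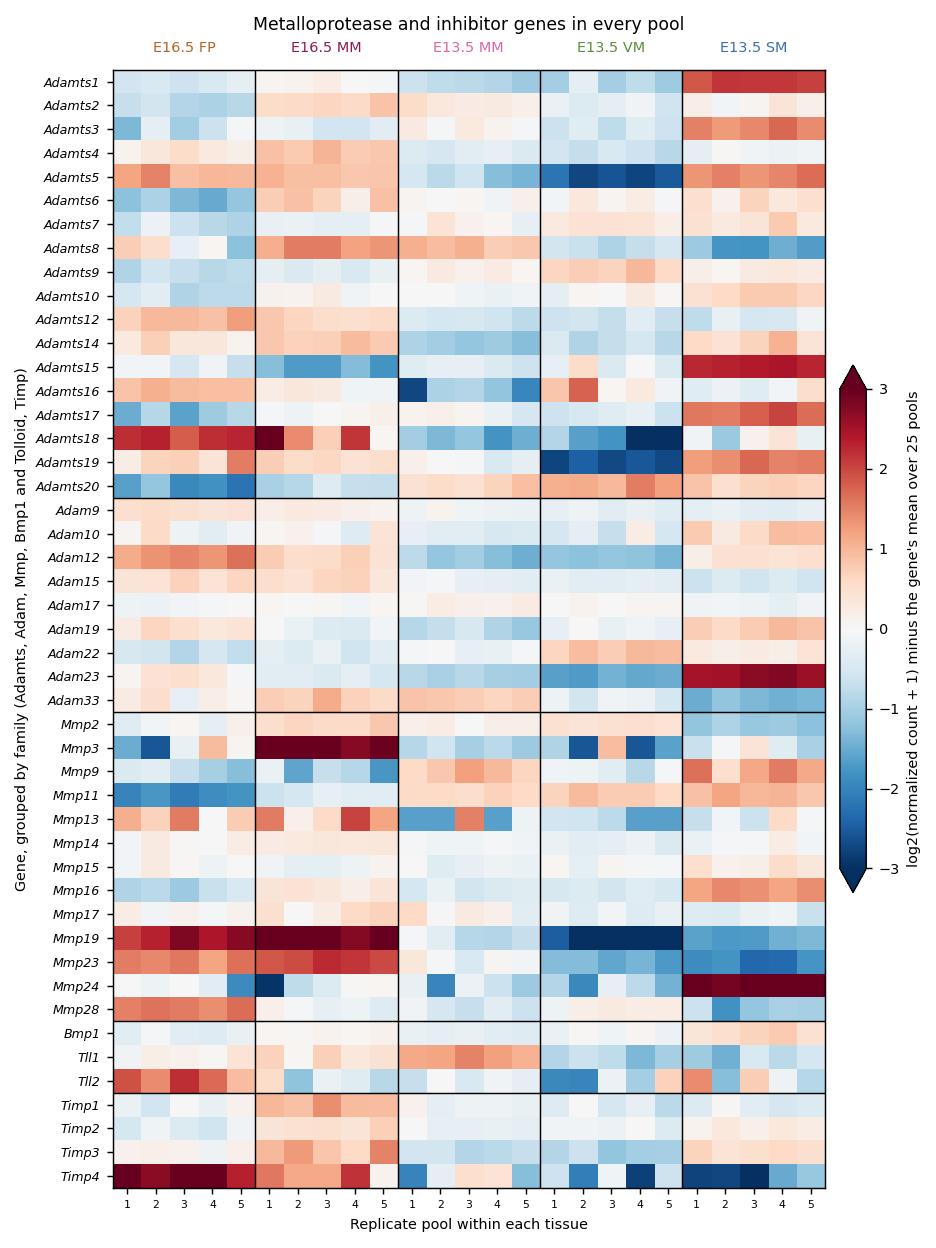
Colour shows log2(normalized count + 1) of each of the 47 genes (rows, by family) in each of the 25 pools (columns, by tissue), minus the gene's mean over all pools, with the colour scale ending at 3 in either direction. Mmp19 and Mmp23 are red in the E16.5 pools, Adamts1, Adamts15, Adam23 and Mmp24 are red in the E13.5 SM pools, and Adamts5 and Adamts19 are blue in the E13.5 VM pools.

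E13.5 MM against E13.5 VM gave 11 higher members (23.9% of the 46 tested, beside 3.79% called higher among all genes) and 4 lower ones (8.70%, beside 2.66%). E13.5 MM against E13.5 SM gave 7 higher (15.2%, beside 14.5%) and 16 lower (34.8%, beside 15.6%). E16.5 MM against E13.5 SM gave 14 higher (30.4%, beside 18.5%) and 15 lower (32.6%, beside 16.6%). E16.5 FP against E13.5 SM gave 15 higher (32.6%, beside 20.2%) and 19 lower (41.3%, beside 19.3%). These 3 comparisons share the E13.5 SM pools. E16.5 MM against E13.5 MM gave 19 higher (41.3%, beside 12.6%) and 5 lower (10.9%, beside 7.16%), and E16.5 FP against E16.5 MM gave 8 higher (17.4%, beside 6.78%) and 15 lower (32.6%, beside 7.34%). The share of members called higher in E13.5 MM against E13.5 SM was thus near that of all genes, whereas with stage the members' median log2 fold change was 0.42, beside 0.01 for all genes, and in E16.5 FP against E16.5 MM it was -0.34, beside 0.00.

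**Figure D2:**
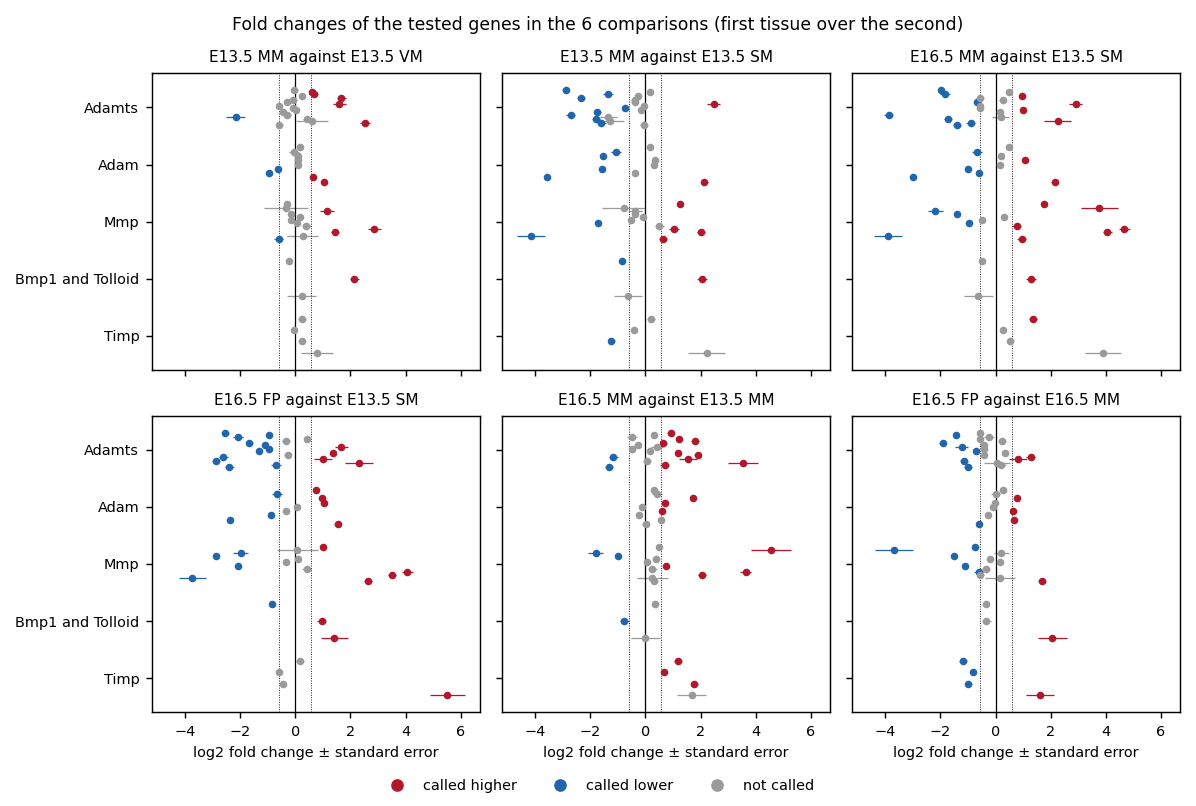
Each point is the log2 fold change of 1 of the 46 tested genes with its standard error (horizontal line), by family (rows) in the 6 comparisons (panels), as the first tissue over the second, with dotted lines at 0.58 in either direction. In E16.5 MM against E13.5 MM, 19 genes were called higher (red) and 5 lower (blue), and in E16.5 FP against E16.5 MM 8 were called higher and 15 lower.

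A stricter rule asked for genes with a mean above 100 in 1 tissue, whose log2 fold change over each of the 4 others was 1 or more. It was met by 8 members, beside 6.34% of all genes. Adamts1, Adamts3, Adamts15, Adamts17 and Adam23 met it in E13.5 SM, Mmp28 and Timp4 in E16.5 FP, and Timp1 in E16.5 MM. No member met it in E13.5 MM or E13.5 VM. Timp4, with a mean of 100.6 in E16.5 FP, lay just above the minimum of 100. The count was 7 without E16.5 FP replicate 1 or 3 and 9 without E13.5 SM replicate 4.

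To compare genes with each other, CPM were divided by exon length. Mmp2 had the highest level per length of all members in 4 tissues. In CPM per kb, E16.5 FP held 88.9 ± 13.7, E16.5 MM 147.3 ± 11.7, E13.5 MM 104.8 ± 6.31 and E13.5 VM 129.2 ± 4.06 (SD over 5 pools). In E13.5 SM it held 43.99 ± 3.50 CPM per kb, and Adamts1 stood first there with 121.7 ± 8.91. By merged exon length Timp2 was second in all 5 tissues, at 36.9 to 65.7 CPM per kb. In E16.5 FP Adam12 was level with it, at 36.9 ± 4.96 beside 36.9 ± 5.94. Summed over a family, the Adamts genes held 264.7 to 313.6 CPM per kb in the E13.5 SM pools and at most 147.0 in any other pool. The Timp genes held 115.9 to 151.5 CPM per kb in the E16.5 MM pools and at most 95.8 elsewhere, and the Mmp genes 233.5 to 272.0 in the E16.5 MM pools and at most 199.5 elsewhere. The Adam family was high in both E16.5 FP and E13.5 SM, whose pools overlapped (117.6 to 138.8 and 111.8 to 130.2 CPM per kb). These sums carry no test, since a few abundant genes set them.

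**Figure D3:**
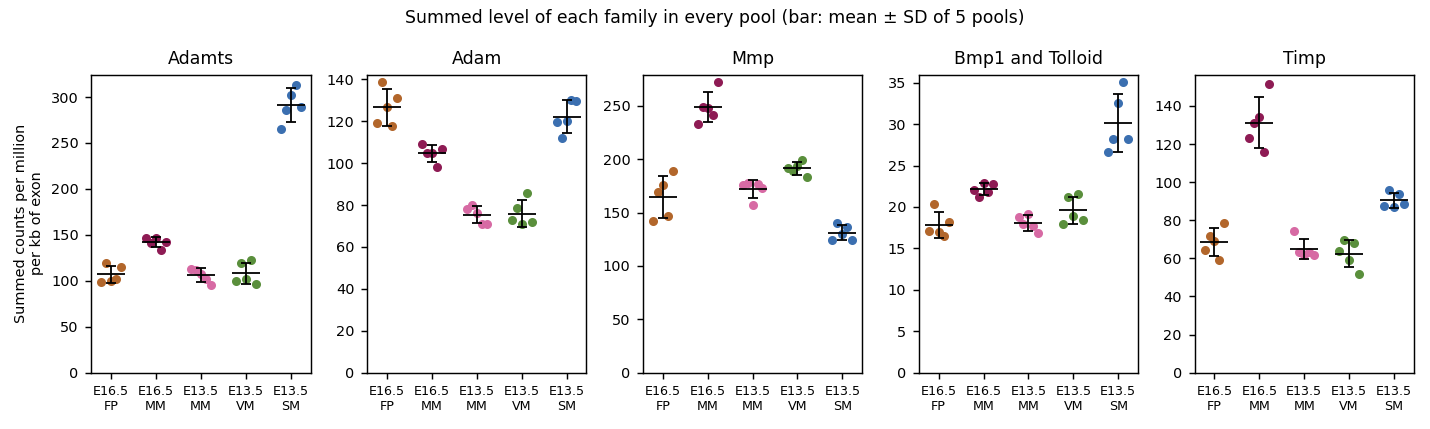
Points are the summed CPM per kb of exon of each family in each pool, and bars the mean ± SD of 5 pools, for E16.5 FP, E16.5 MM, E13.5 MM, E13.5 VM and E13.5 SM from left to right. The 5 E13.5 SM pools lie above all others for Adamts (264.7 or more), and the 5 E16.5 MM pools lie above all others for Mmp (233.5 or more) and Timp (115.9 or more).

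Of the Adamts genes that cleave versican or aggrecan, Adamts1, Adamts5 and Adamts15 had their highest mean in E13.5 SM, Adamts4 and Adamts8 in E16.5 MM, and Adamts9 and Adamts20 in E13.5 VM. Adamts1, which cleaves both proteoglycans, had 2619.4, 2408.1, 2351.5, 2211.1 and 1911.3 normalized counts in E13.5 MM, against 14986.5, 18024.4, 17858.0, 17710.2 and 16973.4 in E13.5 SM. Every SM pool thus lay far above every MM pool, and the other 15 pools reached at most 4801.9. E16.5 FP held 2729.3, 2994.4, 2647.3, 2982.9 and 3408.9, and E13.5 VM 2026.4, 3367.4, 2011.7, 2409.3 and 1942.3. The log2 fold change against SM was -2.90 ± 0.12 (SE) in E13.5 MM (edgeR adjusted p = 4.57e-16), -1.98 ± 0.12 in E16.5 MM (adjusted p = 2.27e-13) and -2.54 ± 0.12 in E16.5 FP (adjusted p = 2.51e-15). With stage Adamts1 rose in MM, to 4350.1, 4417.2, 4801.9, 4065.1 and 4020.8 in the E16.5 MM pools (log2 fold change 0.91 ± 0.12, adjusted p = 6.01e-07). The gene lies at chr16:85793827-85803113 (GRCm38, minus strand), 53.1 kb from Adamts5. Because Adamts1 led the members per length in E13.5 SM, the 120 bases before its start are shown, with the letters GGGCGG of a GC box in capitals.
Adamts1 (chr16:85803114-85803233, minus strand, RefSeq, GRCm38.p6): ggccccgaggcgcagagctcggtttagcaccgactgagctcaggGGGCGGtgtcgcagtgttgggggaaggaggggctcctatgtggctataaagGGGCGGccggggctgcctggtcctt
The 2 matches begin 76 and 25 bases before the start. Within the 250 bases before the start, GGGCGG on either strand stood in 32.7% of all 32851 RefSeq promoters and in 19 of the 29 members for which a promoter sequence was at hand, so such a match was common. The first share counts promoters and the second counts genes with a match in any of their promoters, so they cannot be compared directly.

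Adamts5, its neighbour and an aggrecanase, had 546.9, 446.6, 519.8, 325.7 and 298.5 normalized counts in E13.5 MM, against 1975.5, 2241.4, 1956.4, 2168.4 and 2512.9 in E13.5 SM (log2 fold change -2.35 ± 0.15, adjusted p = 6.43e-13). Against E13.5 VM, with 116.4 to 169.9, the E13.5 MM pools were higher without overlap (1.67 ± 0.15, adjusted p = 1.02e-08). Unlike Adamts1, Adamts5 approached the salivary level at E16.5, with 1383.5 to 1616.7 in E16.5 MM and 1478.0 to 2213.1 in E16.5 FP. Neither difference from SM reached the fold change threshold (-0.56, adjusted p = 9.25e-04, and -0.34, adjusted p = 0.0317). The E16.5 MM pools still lay below every SM pool, whereas the FP pools overlapped SM. Adamts4, the other classical aggrecanase, rose in MM with stage (1.23 ± 0.09, adjusted p = 4.23e-11), and the pools of the stages did not overlap.

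Adamts15 and Adamts8 lie 20.1 kb apart on chromosome 9 and were distributed in opposite ways. Adamts15, which cleaves versican, had 1368.5, 1487.1, 1469.8, 1294.3 and 1142.0 in E13.5 MM, against 8387.3, 8682.2, 9114.2, 9558.4 and 8484.7 in E13.5 SM (-2.71 ± 0.17, adjusted p = 7.86e-13). It was lowest in E16.5 MM, with 717.8, 534.5, 542.0, 706.2 and 506.5, all below the E13.5 MM pools (-1.17 ± 0.16, adjusted p = 2.07e-06). With 1649.6, 1657.8, 1244.4, 1633.9 and 1080.0 in E16.5 FP, it was higher there than in E16.5 MM (1.27 ± 0.16, adjusted p = 9.27e-07). E13.5 VM, with 1486.5, 2566.1, 1306.4, 1774.6 and 1292.6, overlapped E13.5 MM. Adamts8 had 313.0, 284.0, 312.1, 249.0 and 262.3 in E13.5 MM, against 69.1, 43.1, 42.3, 53.1 and 45.7 in E13.5 SM (2.48 ± 0.24, adjusted p = 1.74e-09). No pool of E13.5 MM overlapped the E13.5 VM pools either, which held 101.1, 93.4, 77.7, 90.2 and 105.1 (1.60 ± 0.23, adjusted p = 9.65e-06). E16.5 FP held 249.9, 215.2, 126.2, 154.4 and 62.4, below the 318.7, 431.4, 432.6, 342.1 and 373.6 of E16.5 MM (-1.23 ± 0.22, adjusted p = 9.06e-05). FP replicate 5, the pool with the least muscle RNA, had the lowest Adamts8 of its tissue, and the part of muscle RNA in this level was not tested.

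Adamts9 and Adamts20, the versican-cleaving pair related to nematode GON-1, had their highest means in E13.5 VM, with 9403.9 ± 1064.4 and 1828.7 ± 284.5. Adamts20, whose loss causes the belted coat of mice, fell in MM with stage, to 408.2, 438.6, 605.6, 497.0 and 485.4 in E16.5 MM, against 1101.8, 1177.3, 1099.2, 1274.7 and 1493.6 in E13.5 MM (-1.34 ± 0.15, adjusted p = 5.19e-08). E16.5 FP was lower again, with 256.6, 355.0, 208.1, 225.9 and 170.1 (-0.999 ± 0.15 against E16.5 MM, adjusted p = 9.08e-06). Both E16.5 tissues lay below every E13.5 pool, since E13.5 VM held 1682.2, 1728.4, 1571.6, 2303.4 and 1857.8 and E13.5 SM 1433.9, 1116.9, 1274.1, 1315.8 and 1247.0. Adamts9 was called in 1 comparison, E16.5 FP against E13.5 SM, where FP was lower (-0.96 ± 0.08, adjusted p = 6.27e-11). It shares 1381 exonic bases with A730049H05Rik and 424 with Gm15737, both on the other strand.

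The procollagen N-proteinases, which remove the amino-terminal propeptide of fibrillar procollagens, did not move together. Adamts3, which also processes Vegfc, had 281.4, 227.6, 289.7, 251.3 and 227.9 in E13.5 MM, against 666.3, 569.0, 640.9, 772.6 and 627.0 in E13.5 SM (-1.36 ± 0.17, adjusted p = 1.28e-07). The other tissues lay below every E13.5 MM pool, E16.5 FP holding 91.1, 194.3, 112.8, 150.2 and 225.1, E16.5 MM 209.8, 201.3, 157.4, 158.3 and 188.3, and E13.5 VM 150.6, 181.7, 138.1, 183.0 and 152.1. Adamts14 was high in both E16.5 MM (964.5 ± 70.6) and E13.5 SM (870.8 ± 170.8), and rose in MM with stage (1.89 ± 0.12, adjusted p = 7.51e-12). Adamts2 held 1408.3 ± 160.0 in E16.5 FP, against 3763.8 ± 331.9 in E16.5 MM (-1.42 ± 0.10, adjusted p = 2.82e-11), and was high in MM at E13.5 too (3010.5 ± 321.5). Its higher level in E13.5 MM than in ventral skin (0.62 ± 0.10) was not called without E13.5 MM replicate 1 (0.57) or E13.5 VM replicate 5 (0.57).

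Of the Adamts genes with less studied substrates, Adamts17 had 2043.1, 2103.9, 2030.6, 1660.7 and 1341.7 in E13.5 MM, against 5707.8, 5479.1, 6598.7, 7724.6 and 6060.2 in E13.5 SM (-1.78 ± 0.14, adjusted p = 7.68e-11). In E16.5 FP it held 679.8, 1050.0, 629.6, 908.6 and 1063.0, below every E16.5 MM pool, which held 1828.8, 1713.7, 1892.6, 2008.8 and 2101.5 (-1.14 ± 0.14, adjusted p = 5.99e-07). E13.5 VM, with 1230.5, 1363.0, 1479.0, 1597.7 and 1215.7, lay between these tissues. Adamts6, related to the fibrillin-binding Adamts10, had 354.4, 437.3, 328.9, 295.3 and 375.1 in E16.5 FP, against 1406.8, 1551.9, 1323.0, 952.4 and 1536.6 in E16.5 MM (-1.92 ± 0.13, adjusted p = 7.24e-12). Adamts10 itself was lower in the same comparison (-0.73 ± 0.10, adjusted p = 4.45e-06), with no overlap of the pools for either gene. For Adamts6, E13.5 MM held 882.6, 849.2, 870.0, 785.3 and 936.2, E13.5 VM 792.7, 1044.3, 889.0, 982.3 and 823.3, and E13.5 SM 1184.6, 920.5, 1325.1, 1040.6 and 1194.4, all above the FP pools.

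Adamts19 was lowest in ventral skin, with 1545.9, 1369.5, 1336.2, 999.9 and 1128.8 in E13.5 MM, against 203.3, 252.2, 211.8, 235.5 and 209.3 in E13.5 VM (2.52 ± 0.18, adjusted p = 5.21e-10). Its level in E13.5 SM, with 3276.7, 3606.4, 4565.3, 3898.7 and 4002.4, was above that of E13.5 MM (-1.60 ± 0.17, adjusted p = 2.02e-08). E16.5 FP held 1621.8, 2212.1, 2262.0, 1813.1 and 3998.6, against 2320.7, 2034.8, 2131.8, 1879.4 and 1993.8 in E16.5 MM, and FP replicate 5 stood apart from the other 4 FP pools. Against E13.5 SM the log2 fold change of Adamts19 in FP was -0.70 with all pools and -0.96 without replicate 5. With replicate 5 as the only FP sample it was -0.004.

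Adamts18 and Adamts16 were low and uneven. Adamts18 had 191.1, 204.3, 145.0, 193.7 and 200.8 in E16.5 FP and 496.5, 110.2, 67.3, 183.8 and 42.3 in E16.5 MM, against 37.7, 18.2, 44.3, 53.1 and 34.8 in E13.5 SM and at most 21.5 in the other pools. E13.5 MM held 19.2, 15.3, 17.6, 10.96 and 14.1, and E13.5 VM 21.5, 12.5, 10.98, 2.63 and 3.75. The E16.5 MM pools reached both above and below all FP pools, and 1 of them lay within the range of SM. E16.5 MM was called higher than at E13.5 (3.54 ± 0.54, adjusted p = 8.19e-06) and than SM (2.25 ± 0.49, adjusted p = 3.33e-04), and without E16.5 MM replicate 1 these values were 2.70 and 1.41. Adamts16 had 6.78, 25.8, 27.3, 21.9 and 12.4 in E13.5 MM, against 91.4, 174.4, 52.6, 62.2 and 46.9 in E13.5 VM (-2.16 ± 0.34, adjusted p = 3.44e-05), and these pools did not overlap. E16.5 FP, with 93.3, 107.1, 99.3, 95.3 and 96.2, was called higher than E16.5 MM, with 59.6, 64.7, 61.3, 46.2 and 47.3 (0.82 ± 0.32, adjusted p = 0.0472). That call was lost on leaving out any 1 pool of either tissue (adjusted p = 0.0566 to 0.0999), although the pools did not overlap. E13.5 SM, with 39.5, 45.0, 39.5, 47.7 and 73.5, overlapped E16.5 MM. Adamts12, which cleaves cartilage oligomeric matrix protein, rose in MM with stage (1.17 ± 0.11, adjusted p = 5.2e-09) and was high in E16.5 FP (6811.9 ± 974.6). Adamts7, its relative, was highest in E13.5 SM (995.8 ± 149.6) and lower in FP (-1.097 ± 0.13 against SM, adjusted p = 2.36e-08).

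Among the Adam genes, Adam23 showed the largest salivary difference. This catalytically inactive Adam, a neuronal receptor of Lgi proteins, had 678.0, 609.2, 677.8, 601.3 and 581.2 in E13.5 MM, against 6765.1, 6878.5, 7850.7, 8223.8 and 7219.8 in E13.5 SM (-3.55 ± 0.10, adjusted p = 6.67e-20). E13.5 VM held 385.1, 367.5, 444.9, 409.7 and 425.3, and E13.5 MM was higher (0.63 ± 0.09, adjusted p = 1.29e-05). In the E16.5 tissues FP held 1275.2, 1623.1, 1692.8, 1498.2 and 1149.7, against 965.4, 940.7, 892.8, 975.5 and 829.7 in E16.5 MM (0.65 ± 0.09, adjusted p = 2.21e-06). Its inactive relative Adam22 was instead highest in E13.5 VM, with 1730.1, 1832.3, 1518.6, 1555.0 and 1747.9 in E13.5 MM, against 2814.8, 3401.7, 2997.2, 3518.5 and 3428.3 in E13.5 VM (-0.95 ± 0.09, adjusted p = 8.67e-09). E16.5 FP held 1284.1, 1236.4, 985.3, 1270.2 and 1086.3, E16.5 MM 1503.2, 1362.5, 1569.4, 1197.4 and 1458.1, and E13.5 SM 2192.5, 2033.6, 2131.6, 2023.6 and 2403.6. The salivary pools also held the most RNA of peripheral neurons (336.9 to 429.8 CPM, against at most 31.5 elsewhere), and its part in the Adam23 result was not tested.

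Adam10, the sheddase of Notch receptors, had 2300.8, 2158.5, 2164.2, 1962.1 and 2013.8 in E13.5 MM, against 4742.0, 3270.2, 4067.8, 5197.4 and 5094.4 in E13.5 SM (-1.08 ± 0.18, adjusted p = 1.33e-05). In E16.5 FP it held 2912.6, 4060.3, 2470.1, 2144.7 and 2540.3, and in E16.5 MM 2843.5, 2968.3, 2606.4, 2075.9 and 3645.2. Both E16.5 tissues overlapped SM in some pools and were called lower (-0.66 ± 0.18 each, adjusted p = 0.00187 and 0.00208), but not without FP replicate 4 (-0.57) or E16.5 MM replicate 4 (-0.55). E13.5 VM, with 1931.8, 2220.4, 1681.4, 3189.3 and 1901.0, overlapped E13.5 MM. Adam17, the sheddase of tumor necrosis factor, varied little, with means of 1935.7 to 2399.5 and no call in the 6 comparisons.

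The meltrins Adam12 and Adam19 were both low in E13.5 MM. Adam12, known for a role in muscle and fat precursor cells, had 8592.2, 10023.2, 10908.6, 9873.8 and 12347.6 in E16.5 FP, against 6668.5, 5650.3, 5811.3, 6483.1 and 5320.8 in E16.5 MM (0.79 ± 0.10, adjusted p = 1.16e-06). In E13.5 MM it held 1433.5 to 2287.2, so that MM rose with stage without overlap (1.73 ± 0.11, adjusted p = 2.28e-12). Its highest FP value came from replicate 5, where skeletal muscle genes were the lowest of the FP pools. The part of muscle RNA in the Adam12 level was not tested. Adam19 had 1097.3, 1201.2, 1415.2, 1060.9 and 900.0 in E13.5 MM, against 1672.6, 1979.6, 1694.8, 1842.9 and 1664.4 in E13.5 VM (-0.64 ± 0.11, adjusted p = 7.74e-05) and 3283.0, 2939.7, 3377.8, 3852.0 and 3549.3 in E13.5 SM (-1.58 ± 0.11, adjusted p = 3.03e-12). In E16.5 FP it held 2346.0, 3087.6, 2800.3, 2449.3 and 2631.2, above every E16.5 MM pool, with 1982.4, 1711.3, 1492.5, 1465.6 and 1870.9 (0.64 ± 0.11, adjusted p = 2.83e-05). This last fold change was 0.57 without FP replicate 2 and 0.58 without E16.5 MM replicate 4, and was then not called.

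Adam33, a gene of mesenchymal cells linked to asthma in humans, was low in E13.5 SM. It had 1061.1, 1030.9, 977.3, 918.4 and 985.7 in E13.5 MM, against 208.9, 256.7, 231.0, 214.9 and 224.6 in E13.5 SM (2.13 ± 0.13, adjusted p = 1.83e-13). E13.5 VM held 530.3, 398.6, 546.9, 520.9 and 409.3, and E13.5 MM was higher there too (1.05 ± 0.12, adjusted p = 4.31e-07). E16.5 FP, with 692.0, 847.7, 494.0, 668.3 and 603.4, was called lower than E16.5 MM, with 980.3, 929.9, 1269.0, 945.5 and 878.1 (-0.60 ± 0.12, adjusted p = 2.84e-04), though not without FP replicate 3 (-0.51) or 5 (-0.57) or E16.5 MM replicate 3 (-0.50). Adam9 and Adam15 were highest in the E16.5 tissues, and Adam15 rose in MM with stage (0.73 ± 0.08, adjusted p = 4.72e-08).

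The gelatinase Mmp2 and its activator Mmp14 were abundant in all tissues. Mmp2 had 9478.7, 9889.5, 8405.3, 9554.6 and 9537.3 normalized counts in E13.5 MM, against 11603.5, 11149.7, 11670.3, 12072.7 and 11274.3 in E13.5 VM and 3747.5, 4445.5, 3872.4, 3968.9 and 3633.7 in E13.5 SM. E13.5 MM was thus above SM in every pool (1.25 ± 0.09, adjusted p = 2.99e-12) and below VM in every pool by less than the threshold (-0.30 ± 0.08, adjusted p = 0.0132). E16.5 FP held 6547.2, 8053.1, 8889.6, 6888.8 and 9380.4, against 12219.1, 13353.3, 12663.3, 12710.7 and 14896.0 in E16.5 MM (-0.73 ± 0.08, adjusted p = 1.76e-07).

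Mmp14, the membrane protease that activates pro-Mmp2 in a complex with Timp2, varied little. It held 4197.8, 5314.5, 4558.9, 4391.9 and 5141.9 in E16.5 FP and 5249.0, 5391.4, 5569.8, 5486.7 and 5647.0 in E16.5 MM, against 4276.1, 4035.8, 4055.4, 4293.8 and 4111.5 in E13.5 MM. E13.5 VM held 3852.8, 3555.3, 3704.1, 3940.5 and 3279.0, and E13.5 SM 3877.5, 4336.3, 4329.5, 5185.7 and 4195.1. No comparison of Mmp14 was called, and the largest difference was the rise with stage in MM (0.40 ± 0.07, adjusted p = 6.87e-05). Mmp16, another membrane-bound activator, behaved otherwise. E16.5 MM held 2432.0 ± 156.8 and E13.5 SM 4750.6 ± 385.3, and all other pools lay at 898.1 to 1650.6 (-1.73 ± 0.09 for E13.5 MM against SM, adjusted p = 2.2e-14). Mmp15, Mmp17 and Mmp14 changed by less than 0.8 on the log2 scale in every comparison, and of these only Mmp17 was called, in E16.5 MM against E13.5 SM (0.77 ± 0.16, adjusted p = 1.4e-04).

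Mmp24, a membrane-bound Mmp known from neurons, was found almost only in the salivary pools. It had 5.65, 0.956, 5.85, 3.92 and 2.65 in E13.5 MM, against 69.1, 55.6, 69.3, 66.6 and 85.5 in E13.5 SM (-4.16 ± 0.50, adjusted p = 9.05e-08). No pool outside SM exceeded 7.05, E16.5 FP holding 6.67, 5.95, 6.71, 5.18 and 1.06, E16.5 MM 0, 3.60, 4.81, 6.93 and 7.05, and E13.5 VM 3.23, 1.04, 5.49, 3.50 and 1.88. The neuronal genes were likewise highest in SM (336.9 to 429.8 CPM), and their part in the Mmp24 level was not tested. Mmp24 shares 637 exonic bases with BC029722 on the other strand, and its reads and those of the partner could not be told apart if strand was not used in counting.

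Mmp19 and Mmp23 had the largest fold changes of the members higher in E16.5 MM than in salivary mesenchyme. Mmp19, a secreted Mmp of connective tissue, had 706.5, 851.7, 1188.1, 916.9 and 1131.7 in E16.5 FP and 1471.1, 1526.7, 1485.3, 1165.1 and 1696.7 in E16.5 MM, against 166.1, 133.9, 94.6, 92.4 and 106.0 in E13.5 MM. E13.5 VM held 30.1, 14.5, 16.48, 11.4 and 9.39, and E13.5 SM 55.6, 50.8, 52.0, 62.1 and 66.6. The pools of the 3 E13.5 tissues did not overlap one another, whereas those of FP and E16.5 MM did. Against E13.5 SM the log2 fold change was 4.68 ± 0.21 in E16.5 MM (adjusted p = 7.15e-16) and 4.06 ± 0.20 in E16.5 FP (adjusted p = 6.37e-15). E13.5 MM exceeded E13.5 VM by 2.86 ± 0.23 (adjusted p = 1.99e-09), and E16.5 MM exceeded E13.5 MM by 3.64 ± 0.19 (adjusted p = 2.99e-13). The lower level in FP than in E16.5 MM (-0.62 ± 0.17) was not called without FP replicate 1 (-0.53) or E16.5 MM replicate 5 (-0.57). Mmp19 shares 789 exonic bases with Tmem198b on the other strand.

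Mmp23, a type II membrane Mmp, was likewise highest in E16.5 MM and then FP, but lowest in SM, where Mmp19 was lowest in VM. It had 943.1, 884.4, 966.6, 730.4 and 1012.3 in E16.5 FP and 1169.5, 1247.5, 1529.7, 1427.5 and 1271.8 in E16.5 MM, against 406.8, 312.7, 234.1, 344.5 and 305.6 in E13.5 MM. E13.5 VM held 131.2, 130.8, 109.8, 122.6 and 97.6, and E13.5 SM 87.0, 92.0, 62.6, 63.0 and 94.4. The E16.5 pools were all above the E13.5 pools. The log2 fold changes were 4.06 ± 0.15 for E16.5 MM against E13.5 SM (adjusted p = 1.66e-17), 2.05 ± 0.13 for E16.5 MM against E13.5 MM (adjusted p = 6.84e-12) and 1.44 ± 0.14 for E13.5 MM against E13.5 VM (adjusted p = 2.56e-08).

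Other Mmp genes fell with stage. Mmp11, or stromelysin 3, which is activated inside the cell by furin, had 241.0, 288.5, 228.2, 268.3 and 280.0 in E16.5 FP and 624.9, 677.1, 820.7, 781.3 and 773.3 in E16.5 MM, against 1444.2, 1489.0, 1402.5, 1580.8 and 1477.7 in E13.5 MM. It was highest in E13.5 SM, with 1802.5, 2220.4, 1956.4, 1988.5 and 1713.0. These 4 tissues did not overlap, whereas E13.5 VM, with 1543.5, 1884.1, 1671.2, 1663.4 and 1470.1, overlapped both E13.5 MM and SM. For Mmp11 the log2 fold change was -1.49 ± 0.09 for FP against E16.5 MM (adjusted p = 1.52e-12), -1.01 ± 0.09 for E16.5 MM against E13.5 MM (adjusted p = 6.16e-10) and -2.89 ± 0.09 for FP against E13.5 SM (adjusted p = 1.03e-18). The gelatinase Mmp9 had 55.0, 20.4, 38.5, 34.7 and 18.1 in E16.5 MM, against 96.1, 110.9, 149.2, 123.7 and 99.8 in E13.5 MM (-1.80 ± 0.27, adjusted p = 6.17e-06). E16.5 FP held 46.6, 50.6, 38.9, 31.1 and 25.4, and E13.5 SM 201.8, 90.0, 142.4, 186.2 and 140.1. The E13.5 VM pools had 58.1, 57.1, 49.4, 35.0 and 60.1, and Mmp9 was higher in E13.5 MM than there (1.16 ± 0.26, adjusted p = 0.00243). Leukocyte genes summed to 400.1 to 462.4 CPM in E16.5 MM, against 196.7 to 240.2 in E13.5 MM and 53.9 to 73.1 in E13.5 SM. The ventral skin pools held 171.6 to 220.4 CPM of these genes. The part of leukocyte RNA in the Mmp9 level was not tested.

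**Figure D4:**
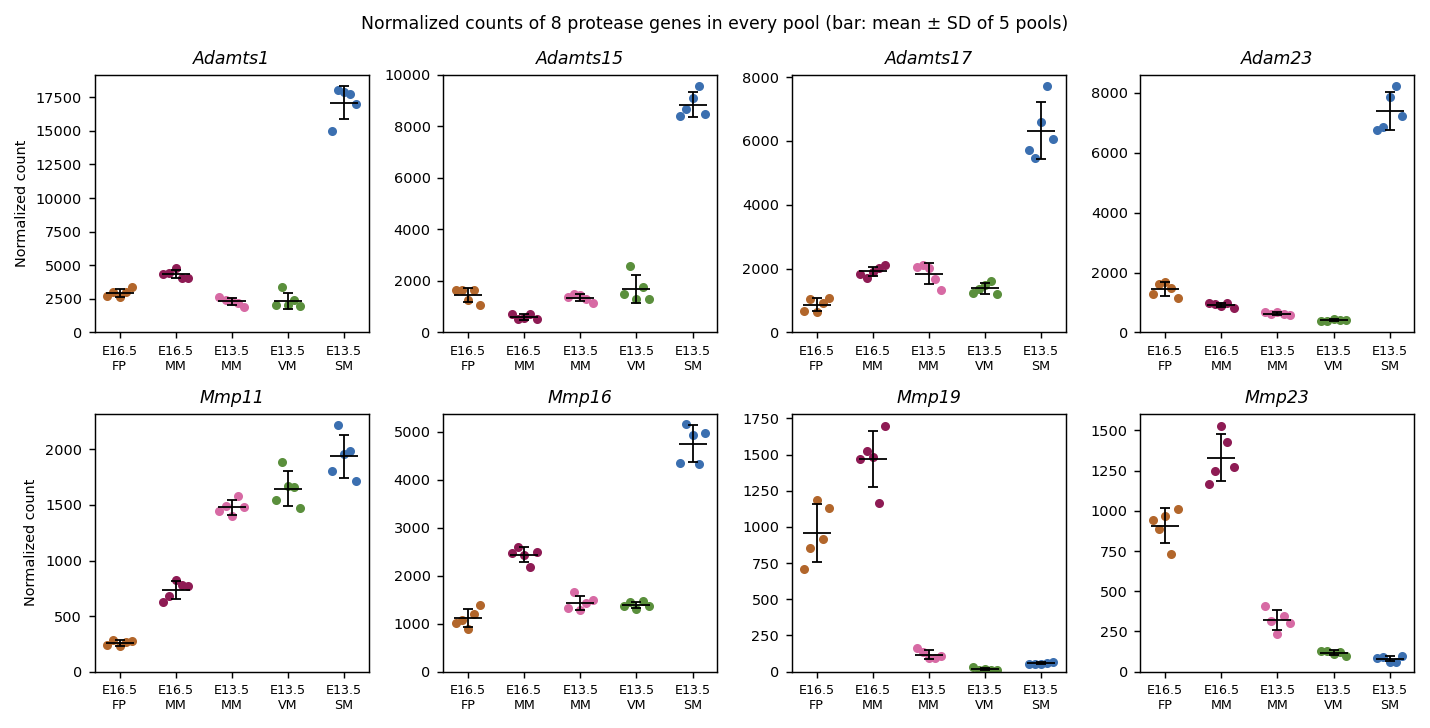
Normalized counts of 8 protease genes in each pool (points) with the mean ± SD of 5 pools (bars), for E16.5 FP, E16.5 MM, E13.5 MM, E13.5 VM and E13.5 SM from left to right, each axis starting at 0. Adamts1, Adamts15, Adamts17, Adam23 and Mmp16 are highest in E13.5 SM, Mmp11 is lowest in E16.5 FP (261.2 ± 25.7), and Mmp19 and Mmp23 are highest in E16.5 MM (1469.0 ± 192.2 and 1329.2 ± 146.1).

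Mmp28 was highest in E16.5 FP and Mmp3 in E16.5 MM, although only Mmp28 met the stricter rule. Mmp28, or epilysin, had 568.7, 613.7, 581.3, 522.2 and 639.3 in E16.5 FP, against 220.1, 190.5, 167.0, 179.2 and 151.0 in E16.5 MM (1.69 ± 0.15, adjusted p = 3.01e-09). All pools of other tissues were at 240.1 or below, and FP was also higher than E13.5 SM, with 125.5, 55.6, 87.6, 100.7 and 99.4 (2.64 ± 0.16, adjusted p = 1.89e-13). Mmp28 shares 466 exonic bases with 1700020L24Rik on the other strand. E13.5 MM, with 185.3, 138.7, 122.9, 155.8 and 126.3, overlapped both E13.5 VM (178.5, 223.2, 240.1, 232.9 and 231.9) and E13.5 SM. It was called lower than VM (-0.60 ± 0.15) and higher than SM (0.63 ± 0.16), and these calls were lost without E13.5 MM replicate 2, 3 or 5 or VM replicate 3 or 5 (-0.58 to -0.55), and without E13.5 MM replicate 1 or SM replicate 2 (0.54 and 0.49).

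Mmp3, or stromelysin 1, had 1.11, 0, 4.03, 10.4 and 5.28 in E16.5 FP, against 48.2, 55.1, 90.1, 38.1 and 44.3 in E16.5 MM (-3.69 ± 0.68, adjusted p = 1.14e-04). E13.5 MM held 2.26, 2.87, 1.95, 2.35 and 1.77, E13.5 VM 2.15, 0, 10.2, 0 and 0.939, and E13.5 SM 2.69, 4.79, 6.74, 3.60 and 1.99, so that the 5 E16.5 MM pools stood alone. E16.5 MM was higher than E13.5 MM (4.55 ± 0.72, adjusted p = 1.14e-05) and than E13.5 SM (3.76 ± 0.67, adjusted p = 2.78e-05). Its mean of 55.2 in E16.5 MM was just above the minimum of 50, and without E16.5 MM replicate 3 all 3 calls were lost (-3.45, 4.31 and 3.52), although the adjusted p stayed at 6.24e-04 or less; without FP replicate 4 the difference from FP was -4.39. Mmp13, or collagenase 3, lies 162.5 kb from Mmp3 and did not pass the filter, with 28 counts over the 5 E16.5 MM libraries and 3 to 21 counts over those of the other tissues. The 120 bases before the start of both genes are shown because they were 2 of the 3 members, with Adam19, that held the AP-1 motif TGANTCA within 250 bases before the start. The motif is in capitals.
Mmp3 (chr9:7445702-7445821, plus strand, RefSeq, GRCm38.p6): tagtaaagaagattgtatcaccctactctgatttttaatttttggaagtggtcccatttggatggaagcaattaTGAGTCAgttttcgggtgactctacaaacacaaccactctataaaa
Mmp13 (chr9:7272394-7272513, plus strand, RefSeq, GRCm38.p6): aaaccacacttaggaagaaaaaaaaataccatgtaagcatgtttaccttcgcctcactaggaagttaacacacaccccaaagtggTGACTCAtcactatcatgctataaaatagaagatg
The motif reads the same on both strands, begins 46 bases before the start in Mmp3 and 35 in Mmp13, and was found in 6.75% of the 32851 promoters searched. That share counts promoters, not genes. Of the genes that share it, Mmp3 and Adam19 differed in distribution, since Adam19 was lowest in E13.5 MM and highest in E13.5 SM.

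Of the Bmp1 and Tolloid genes, Bmp1, the main procollagen C-proteinase, had 4072.7, 3836.8, 4058.3, 3777.9 and 3609.8 in E13.5 MM, against 6099.7, 6581.6, 7483.1, 8131.1 and 6501.4 in E13.5 SM (-0.85 ± 0.08, adjusted p = 7.09e-10). In E16.5 FP it held 3762.3, 4540.1, 3698.4, 3616.9 and 4017.6, also below every SM pool (-0.83 ± 0.08, adjusted p = 7.13e-10). In E16.5 MM it held 4902.8, 4817.4, 5110.7, 4908.8 and 5130.5. These pools lay below every SM pool too, but by less than the fold change threshold (-0.49 ± 0.08, adjusted p = 5.21e-06), so that no call was made. E13.5 VM, with 4130.3, 4869.5, 4322.4, 5006.8 and 4199.0, also lay below every SM pool. Tll1, which cleaves chordin, went the other way. It had 299.5, 313.7, 386.2, 321.8 and 280.9 in E13.5 MM, against 74.2, 87.2, 80.03, 53.4 and 67.6 in E13.5 VM (2.14 ± 0.17, adjusted p = 1.52e-09) and 64.6, 49.8, 99.1, 78.2 and 95.4 in E13.5 SM (2.05 ± 0.17, adjusted p = 1.95e-10). With stage it fell in MM, with 221.3, 142.6, 223.5, 171.1 and 187.3 in E16.5 MM (-0.76 ± 0.17, adjusted p = 5.11e-04), and E16.5 FP held 126.6, 153.7, 149.0, 139.9 and 180.7. Tll1 was thus 1 of only 2 tested members with its highest mean in E13.5 MM, where no pool of another tissue reached it.

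Tll2 had 60.0, 42.6, 73.8, 51.8 and 29.6 in E16.5 FP, against 22.9, 5.99, 13.2, 11.6 and 8.06 in E16.5 MM (2.05 ± 0.52, adjusted p = 0.00308). The pools did not overlap, and the lowest FP value was that of replicate 5. The skeletal muscle genes were at 2416.6 CPM in that pool and at 14078.8 to 23672.9 CPM in the other 4 FP pools. Without FP replicate 1 or 3 the fold changes were 1.99 and 1.89 and the calls were lost, since the mean of 51.6 in FP lay just above the minimum of 50. The part of muscle RNA in the Tll2 level was not tested. E13.5 MM held 9.04, 15.3, 10.7, 14.1 and 12.4, E13.5 VM 3.23, 3.11, 13.3, 7.004 and 25.4, and E13.5 SM 42.1, 5.75, 26.0, 13.49 and 7.95, so that 1 SM pool reached into the FP range.

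None of the 4 Timp genes was called between E13.5 MM and ventral skin. Timp1, Timp2 and Timp3 rose in MM with stage and were lower in the fat pad precursor, and Timp4 went the other way in FP. Timp1 (chrX:20870166-20874735, plus strand) had 315.5, 244.9, 363.8, 308.7 and 397.3 in E16.5 FP, against 721.2, 663.9, 949.3, 706.2 and 688.8 in E16.5 MM (-1.19 ± 0.14, adjusted p = 3.1e-07). In E13.5 MM it held 394.4, 299.3, 324.8, 328.1 and 308.3 (1.17 ± 0.14 for E16.5 against E13.5, adjusted p = 2.62e-07), in E13.5 VM 276.4, 365.4, 256.6, 306.4 and 207.5, and in E13.5 SM 271.7, 369.7, 284.9, 253.6 and 271.3. The E16.5 MM pools were above all 20 others, which overlapped one another. Timp1 is X-linked, and the 4 Y-linked genes summed to 66.6 to 198.4 CPM in E16.5 MM, against 312.2 to 654.6 CPM in E13.5 MM. The FP pools, of female-labelled embryos like the E16.5 MM pools, held 52.2 to 202.5 CPM of these genes, and E13.5 SM 142.3 to 658.7 CPM. Every pool labelled female thus held some Y-linked RNA, and the reason was not tested. The part of sex in the Timp1 level was not tested either.

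Timp2, which both inhibits Mmp2 and takes part in its activation by Mmp14, had 3331.3, 4434.1, 3648.7, 3177.6 and 4492.1 in E16.5 FP, against 6286.7, 6629.3, 6757.0, 6329.3 and 7938.9 in E16.5 MM (-0.83 ± 0.10, adjusted p = 1.71e-07). With 4839.9, 4089.3, 4071.0, 4150.6 and 4016.1 in E13.5 MM, the stage difference was 0.68 ± 0.10 (adjusted p = 2.22e-06). E13.5 VM held 4457.3, 4512.4, 4261.2, 4863.2 and 3612.3, and E13.5 SM 5236.1, 6057.6, 5390.0, 6063.5 and 5621.0, and the E16.5 MM pools lay above all of these. Mmp2 and Timp2 thus shared the lower level in FP than in E16.5 MM, whereas in E13.5 SM Mmp2 was lowest and Timp2 second highest. Genes of mesenchymal cells also summed to less in FP (23920.3 to 28188.7 CPM) than in E16.5 MM (43739.3 to 49080.8 CPM). Their part in the lower FP levels of Mmp2, Timp1, Timp2 and Timp3 was not tested.

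Timp3, which binds to the matrix and also inhibits Adam17 and aggrecanases, had 3819.0, 3826.3, 3805.8, 3125.8 and 3840.1 in E16.5 FP, against 6815.3, 8363.4, 6144.2, 5256.7 and 9798.7 in E16.5 MM (-0.98 ± 0.13, adjusted p = 7.7e-07). It was low in E13.5 MM, with 2333.5, 2361.2, 1872.6, 1968.4 and 2132.2, against 5488.1, 4634.2, 4852.1, 5266.7 and 4868.8 in E13.5 SM (-1.24 ± 0.13, adjusted p = 5.43e-09). E13.5 VM, with 1885.5, 2219.3, 1522.1, 1712.4 and 1747.0, overlapped E13.5 MM. With stage it rose in MM (1.77 ± 0.13, adjusted p = 3.81e-11), and the E16.5 MM pools spread the most. Timp3 lies inside Syn3 on the opposite strand and shares 1733 exonic bases with it, and whether strand was used in counting was not stated.

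Timp4, at no more than 0.644 CPM per kb on average in any tissue, had the lowest level per length of the inhibitors and was highest in the fat pad precursor. It had 136.6, 84.3, 114.1, 103.6 and 64.5 in E16.5 FP, against 37.8, 27.6, 27.6, 57.8 and 13.1 in E16.5 MM (1.62 ± 0.50, adjusted p = 0.0124) and 0.897, 0.958, 0, 3.60 and 4.97 in E13.5 SM (5.52 ± 0.64, adjusted p = 3.79e-08). E13.5 MM held 2.26, 9.56, 17.6, 16.4 and 4.42, and E13.5 VM 7.53, 2.08, 10.98, 0.876 and 7.51. The FP pools did not overlap the others, but the lowest of them, replicate 5, was close to the highest E16.5 MM pool. Adipocyte genes summed to 773.8 to 1483.7 CPM in FP, against 226.4 CPM or less in E16.5 MM, and skeletal muscle genes were higher in FP as well. The part of either cell type was not tested.

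**Figure D5:**
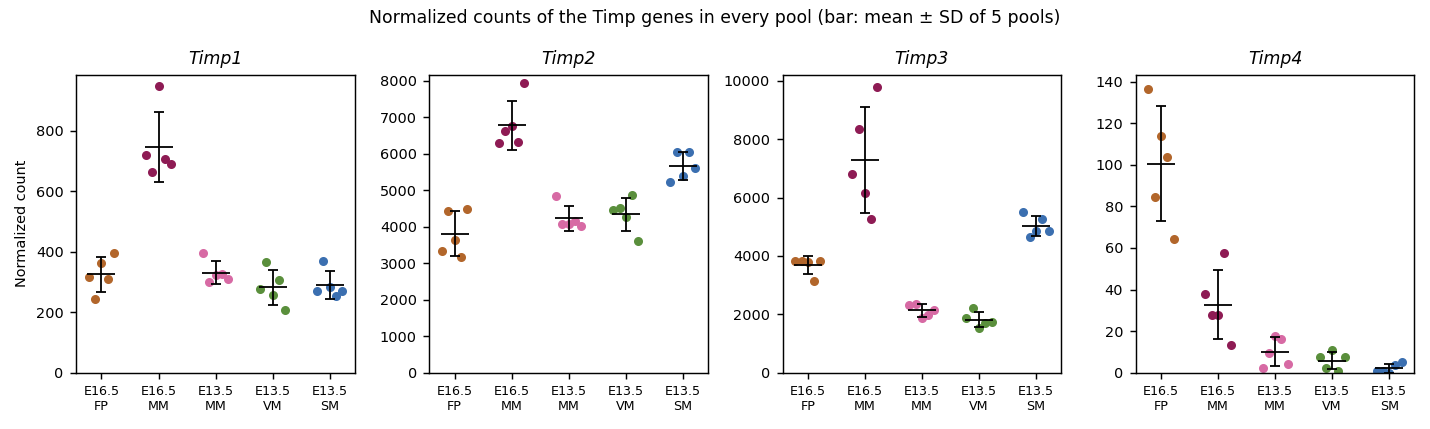
Normalized counts of Timp1, Timp2, Timp3 and Timp4 in each pool (points) with the mean ± SD of 5 pools (bars), for E16.5 FP, E16.5 MM, E13.5 MM, E13.5 VM and E13.5 SM from left to right, each axis starting at 0. Timp1, Timp2 and Timp3 are highest in E16.5 MM (745.9 ± 115.7, 6788.3 ± 673.1 and 7275.6 ± 1810.9), and Timp4 is highest in E16.5 FP (100.6 ± 27.7).

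Besides the members, 34 genes that activate, bind or inhibit these proteases were examined, of which 33 were tested. In E13.5 MM against E13.5 VM 9 of them were higher (27.3%, beside 3.79% of all genes) and none lower (beside 2.66%). A2m, a broad protease trap, had 1453.2, 1449.8, 1676.6, 1196.4 and 1439.7 in E13.5 MM, against 31.2, 29.1, 29.0, 23.6 and 16.9 in E13.5 VM (5.79 ± 0.26, adjusted p = 1.8e-13), and Papln, an Adamts-like matrix protein without a protease domain, was higher by 2.57 ± 0.19 (adjusted p = 2.48e-10). In E13.5 MM against E13.5 SM 11 were higher (33.3%, beside 14.5%), led by the Adamts-like genes Adamtsl1 (4.04 ± 0.20, adjusted p = 1.5e-14) and Adamtsl5 (2.86 ± 0.16, adjusted p = 9.5e-14), and 5 were lower (15.2%, beside 15.6%), led by the testican gene Spock1 (-4.94 ± 0.43, adjusted p = 3.13e-10) and the proprotein convertase Pcsk5 (-2.61 ± 0.17, adjusted p = 4.69e-12). Spock1 had 12.4, 6.69, 12.7, 14.9 and 3.53 in E13.5 MM, against 321.9, 212.6, 309.9, 296.8 and 415.3 in E13.5 SM. The SM pools also held the most neuronal RNA, and its part in the Spock1 level was not tested.

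At E16.5, 17 of these genes were higher (51.5%, beside 18.5% of all genes) and 4 lower (12.1%, beside 16.6%) in MM than in SM. In FP, 14 were higher (42.4%, beside 20.2%) and 6 lower (18.2%, beside 19.3%) than in SM. Adamtsl5 (4.58 ± 0.17, adjusted p = 1.66e-17) and Pcolce2 (3.89 ± 0.34, adjusted p = 2.56e-10) led in MM, Adamtsl3 (4.81 ± 0.22, adjusted p = 1.01e-15) and Pcolce2 (4.41 ± 0.34, adjusted p = 2.41e-11) in FP, and Spock1 and the protease inhibitor Serpine2 fell most in both (-4.78 and -1.88 in MM, -4.90 and -1.53 in FP). Pcolce2 and Pcolce enhance the cleavage of procollagen by Bmp1. With stage in MM, 13 were higher (39.4%, beside 12.6%), led by Pcolce2 (2.70 ± 0.31, adjusted p = 1.15e-07) and Adamtsl4 (1.9 ± 0.16, adjusted p = 7.55e-10), and 4 lower (12.1%, beside 7.16%), led by A2m (-2.91 ± 0.22, adjusted p = 9.43e-11) and the convertase Pcsk6 (-0.89 ± 0.22, adjusted p = 0.00179). In E16.5 FP against E16.5 MM only Adamtsl3 (2.70 ± 0.20, adjusted p = 4.64e-11) and Plau, the urokinase gene (0.66 ± 0.11, adjusted p = 2.58e-05), were higher (6.06%, beside 6.78%), and 8 were lower (24.2%, beside 7.34%), led by Adamtsl5 (-1.66 ± 0.14, adjusted p = 1.16e-09) and Adamtsl1 (-1.59 ± 0.18, adjusted p = 1.33e-07).

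The hyalectans and fibrillar procollagens that these proteases process were counted for 10 genes, of which 9 were tested. With stage in MM 7 rose (77.8%, beside 12.6% of all genes) and none fell (beside 7.16%). In E16.5 FP against E16.5 MM none was higher (beside 6.78%) and 5 were lower (55.6%, beside 7.34%). Vcan, the versican gene, had 31290.7, 41242.1, 32109.6, 29513.6 and 35892.1 in E16.5 FP, against 85994.4, 87036.9, 72772.3, 60601.5 and 109549.1 in E16.5 MM (-1.29 ± 0.13, adjusted p = 9.36e-09). E13.5 MM held 40667.1 to 47561.6 and E13.5 SM 26522.7 to 32838.8, so that Vcan was lowest on average in SM. The SM and FP pools overlapped, however, and the difference between E13.5 MM and SM was below the fold change threshold. Acan and Ncan were instead highest in SM, with 7.25 and 24.4 on average in E13.5 MM, against 525.1 and 270.5 in E13.5 SM (-6.13 ± 0.38 and -3.46 ± 0.35, adjusted p = 7.27e-13 and 3.84e-09). The SM pools also held the most neuronal RNA, and its part in the Ncan level was not tested. Against E13.5 SM, 3 of the 9 tested substrate genes were higher (33.3%, beside 14.5%) and 2 lower (22.2%, beside 15.6%) in E13.5 MM. In E16.5 MM 6 were higher (66.7%, beside 18.5%) and 3 lower (33.3%, beside 16.6%) than in SM. In E16.5 FP 5 were higher (55.6%, beside 20.2%) and 3 lower (33.3%, beside 19.3%). In E13.5 MM against E13.5 VM no substrate gene was called in either direction.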

How the data were processed

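RNA-Seq libraries (Ovation SoLo kit, NextSeq) were made from 25 pools, 5 per tissue, grouped by their labels. The values the authors deposited are estimated counts per gene from Salmon 0.99.0 on mm10, after quality checks with FastQC 0.11.8 and MultiQC 1.9, trimming with Trimmomatic 0.39 and removal of ribosomal reads with SortMeRNA. They were whole numbers, so that no rounding was needed; the use of strand is not stated. Reads of overlapping or similar genes may be divided between them. Genes without a symbol held 0.081% of counts.

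Gene names, positions and exon lengths came from GENCODE M21 (GRCm38), and promoters, at hand for 29 of the 47 genes, from RefSeq. edgeR 4.0.16 (R 4.3.3) fitted the counts by quasi-likelihood, with TMM factors, 1 mean per tissue over all 25 pools and 20 residual degrees of freedom. Adjustment by Benjamini and Hochberg's method was over all 17657 genes that edgeR's filter kept. SE was taken as log2 fold change over the root of its F statistic. The code was tested on simulated counts. Motifs were searched in the 250 bases before each start.

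Values in all 25 pools were given for members enriched in 1 tissue, the Timp genes, Mmp2, Mmp14, Adam10, Adamts1, Bmp1 and the 3 called members with the largest fold change in each direction of each comparison; of the regulators, the 2 largest were named. A few further members, and Vcan, were added after their values were seen. The members and gene lists were chosen with earlier results of these data known. Alternatives were DESeq2 size factors, the Wald test of DESeq2 1.42.0, no expression filter, a replicate block, a mean over both tissues, a fit on 2 tissues, another marker minimum, and each pool left out. E16.5 FP replicate 5 as the only FP sample, with the spread taken from the other tissues, was added after seeing the data. Counting intervals were not needed, since every value came from 5 pools.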

Additional observations from a re-analysis of the deposited data

Results flagged for a closer look

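For each tested member, the highest and lowest pool of each tissue was compared with the other 4. Of 230 such groups, 18 (7.83%) had a pool farther from its nearest neighbour than Dixon's limit for 5 values, and chance alone marks about 1 in 20 groups. In E16.5 FP these were replicate 5 with a high Adamts19 (3998.6 normalized counts, nearest 2262.0) and a low Mmp24 (1.06, nearest 5.18), replicate 3 with a low Adamts18 (145.0, nearest 191.1) and replicate 4 with a low Timp3 (3125.8, nearest 3805.8). In E16.5 MM replicate 3 was high for Adam33 (1269.0) and Timp1 (949.3), replicate 4 low for Adam17 (2015.8), and replicate 5 high for Adamts2 (4339.0) and Timp2 (7938.9). In E13.5 MM replicate 1 was high for Timp2 (4839.9), replicate 2 high for Adam9 (1978.7) and replicate 3 low for Mmp2 (8405.3). In E13.5 VM replicate 1 was high for Adam15 (907.8) and low for Mmp28 (178.5), and replicate 3 was high for Mmp3 (10.2). In E13.5 SM replicate 2 was high for Timp1 (369.7), replicate 4 for Adamts7 (1253.7) and replicate 5 for Adamts16 (73.5). No pool stood apart for more than 2 members.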

How the results depend on the processing

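The 6 comparisons gave 148 called pairs of a member and a comparison. The setting with FP replicate 5 as the only FP sample is not counted here and is given below. Under the other alternatives listed none changed sign, and 22 lost their call in 1 or more of them. Of these, 18 lost it on leaving out a pool and 1 with the Wald test of DESeq2 (Adam22 in E16.5 MM against E13.5 SM, -0.56). Adam22 lost that call also with DESeq2 size factors (-0.56), in a fit of the 2 tissues (-0.53) and without E13.5 SM replicate 5 (-0.55) or E16.5 MM replicate 2 (-0.58) or 4 (-0.53). Adam19 in E16.5 MM against E13.5 MM (0.59) lost its call without the expression filter (0.55) and without E13.5 MM replicate 4 or 5 or E16.5 MM replicate 1 or 5 (0.53 to 0.58), and in E13.5 MM against E13.5 VM without E13.5 MM replicate 5 (-0.56). Adamts7 in E16.5 MM against E13.5 SM (-0.66) lost it without E13.5 SM replicate 4 (-0.57), and Tll2 in E16.5 FP against E13.5 SM (1.42) without FP replicate 1 (1.36) or 3 (1.27). Counts of members moved by no more than 1.5 times when a pool was left out. Those higher in E16.5 FP against E16.5 MM ranged over 6 to 7, beside 8, and those lower in E13.5 MM against E13.5 VM over 3 to 6, beside 4. With FP replicate 5 as the only FP sample, which has no replicate and was assumed to vary like the other tissues' pools, only fold changes are given. Of the 8 members called higher than in E16.5 MM, Mmp28 was at 1.77, Adam12 at 1.001 and Adamts15 at 0.80. The others fell, Tll2 from 2.05 to 1.21, Timp4 from 1.62 to 0.94, Adamts16 from 0.82 to 0.74, Adam19 from 0.643 to 0.579 and Adam23 from 0.65 to 0.28. Adamts19 rose from 0.20 to 0.90 and Adamts12 from 0.35 to 0.59. Mmp2 (-0.54), Mmp3 (-3.40) and Mmp19 (-0.425) came nearer to 0, and Adamts4 (-0.73), Adamts7 (-0.76) and Adamts14 (-0.74) moved away from it. Against E13.5 SM, Adamts8 went from 1.67 to 0.25, Adamts19 from -0.70 to -0.004, Tll2 from 1.42 to 0.58 and Adamts16 from 1.002 to 0.92. Adamts14 went from -0.28 to -0.605 in that comparison. No call rests on this setting. Of the top 5 members per length in E13.5 SM, 3 stayed when lengths of the longest transcript were used. In E16.5 MM, E13.5 MM and E13.5 VM 4 stayed, and in E16.5 FP all 5. Ranks below the first depended on the length used. Adam12 in E16.5 FP, for example, was at 36.9 CPM per kb with merged exons and 50.8 with the longest transcript.

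Uncalled values near 0 changed sign on leaving out a pool. In E13.5 MM against E13.5 VM Adamts1 ranged from -0.083 to 0.134, Adam10 from -0.125 to 0.134 and Timp2 from -0.083 to 0.009, and in E16.5 FP against E16.5 MM Adam10 ranged from -0.185 to 0.105. Correlations of same-numbered pools ran from -0.379 to 0.3, and in no comparison were all 5 above 0.1 (at most 3 of 5), so the numbers were not taken as pairs. With the replicate number as a block, the counts of higher and lower members were 11 and 4 for MM against VM at E13.5 and 8 and 15 for FP against MM at E16.5, and 0 of the 148 pairs lost their call. DESeq2 size factors moved the median of all genes by at most 0.042. Members of low counts, such as Mmp3, Mmp24, Tll2 and Timp4, rest on 5 low values a tissue, and for Mmp13 no difference was detectable at this depth.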

Other observations

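Of 15 further genes of the same families, 7 passed the filter. Mmp12, a macrophage elastase, had 433.2 to 1027.0 normalized counts in E16.5 FP and 610.2 to 1351.2 in E16.5 MM, against 268.2 to 530.2 in E13.5 SM (0.92 ± 0.32 and 1.05 ± 0.32, edgeR adjusted p = 0.0122 and 0.00572). Leukocyte genes summed to 392.4 to 484.0 CPM in FP and 400.1 to 462.4 CPM in E16.5 MM, against 53.9 to 73.1 CPM in SM, and their part in this was not tested. Adam11, an inactive relative of Adam22 and Adam23, had 71.2, 86.1, 73.2, 75.95 and 86.6 in E13.5 MM, against 201.8, 183.9, 226.1, 265.3 and 174.9 in E13.5 SM (-1.42 ± 0.24, adjusted p = 1.84e-05). E16.5 FP reached the same level, with 94.0 to 385.5, and was called higher than E16.5 MM (1.17 ± 0.24, adjusted p = 4.51e-04), although their pools overlapped. The part of neuronal RNA, which was highest in SM, in the Adam11 level was not tested.

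Mmp27, a stromelysin-like Mmp on the same chromosome as Mmp3, was not kept by the expression filter and has no test. It had 10.3, 21.6, 40.9, 78.6 and 7.05 in E16.5 MM, against 1.13, 0.956, 5.85, 0.783 and 0 in E13.5 MM, and E16.5 FP held at most 5.18 and E13.5 VM at most 4.38. All 5 E13.5 SM libraries were at 0. It thus stood highest in the tissue in which Mmp3 did, although the order of the pools differed, with replicate 4 highest for Mmp27 and replicate 3 for Mmp3.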
